A study of Mus musculus with 22 samples.

Results

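The nuclear genes that encode subunits of the mitochondrial respiratory chain were followed in heart RNA of mice given nanosized titanium dioxide (nano-TiO2) or vehicle through the trachea. Members were the genes whose symbol begins with Ndufa, Ndufb, Ndufc, Ndufs, Ndufv, Uqcr, Cox4i, Cox5, Cox6, Cox7, Cox8 or Atp5, together with Sdha, Sdhb, Sdhc, Sdhd and Cyc1, whose probe was well above background in the heart channel on at least 5 of 22 arrays. They came to 85 of the 15502 genes tested. Of these, 36 were assigned to complex I, 4 to complex II, 8 to complex III, 15 to complex IV and 17 to ATP synthase by their symbols, and 5 were Ndufaf genes, whose products help to assemble complex I without being part of it. Ndufa4 was counted with complex I by its symbol, although its product is now placed in complex IV. Of 97 protein-coding genes with such a symbol in RefSeq, 88 had a probe matched by accession. Cox4i2, Cox7b2 and Cox8c were well above background on 0 of 22 arrays and were left out, while Ndufa11, Ndufa4l2, Ndufaf2, Ndufaf6, Ndufaf8, Ndufb1, Ndufb4b, Ndufb4c and Uqcr10 had no matched probe and were not analysed here. The subunits encoded by mitochondrial DNA were not analysed here either, since 0 of 13 were among the genes tested.

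Complex I takes electrons from NADH and complex II from succinate. Complex III passes them on to cytochrome c, complex IV hands them to oxygen, and ATP synthase uses the proton gradient built on the way to make ATP. Heart muscle depends on this pathway for most of its ATP, and in complex IV several small nuclear subunits exist as a striated muscle form and a widespread form. Transcription of the nuclear subunit genes is commonly tied to the factors NRF-1, GABP (an ETS factor), YY1 and the ERR receptors, with the coactivator PGC-1alpha.

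Hearts came from 22 female C57BL/6 mice, bought at 5 to 7 weeks of age and acclimatised for 1 to 3 weeks, with no genetic change named. Nano-TiO2 mice received 162 µg of the particles in 40 µl once into the trachea under Hypnorm and Dormicum anaesthesia. Control mice received 40 µl of the dispersant alone, a salt solution with cell-free lavage fluid from the lungs of naive mice, so this fluid and the anaesthesia were shared by all groups. Each treatment had 5 mice at day 1 and 6 at day 28, with 1 mouse to an array. Mice of the later time were also older, and the time after instillation and age cannot be told apart.

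Values are log2 ratios of heart RNA (Cy5) to Universal Mouse Reference RNA (Cy3), a pool from 11 cell lines, and so rank no transcript by its abundance. The heart channel was well above background at 32.7% to 52.8% of the probes of an array, and at 84 of the 85 members on every array (Ndufaf7 on 11). The tissue label reads heart although the extraction text names lung. All 10 cardiomyocyte markers were tested and had mean log2 ratios between 0.88 (Ryr2) and 7.85 (Tnni3). Some arrays stood apart in markers of neighbouring tissues, as deviations from each gene's mean over the 22 mice. The mean of 6 atrial markers was below -1.5 on 4 arrays (control day 1 replicates 2 and 4, nano-TiO2 day 1 replicate 1 and nano-TiO2 day 28 replicate 1), and the mean of 4 liver markers or the value of Scgb1a1, the only lung epithelium marker tested of 5, was above 1 on 5 (control day 28 replicates 1, 3, 4 and 5 and nano-TiO2 day 1 replicate 2). Control day 28 replicate 5 was among these through Scgb1a1, with a liver mean of 0.086. The members' medians are given below with and without these 9 arrays. The RNA came from pieces of whole tissue, in which fewer cells of a type and less RNA per cell cannot be told apart.

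Members stood high in heart against the reference. Their median was 2.52 on the log2 scale, a ratio of 5.72, against 0.065 for all genes tested, and 78 of 85 (91.8%) lay above 1 against 14.3% of all genes. Complex II had a median of 2.73, complex III 2.69, complex I 2.54, ATP synthase 2.51 and complex IV 2.38, while the assembly factors had 1.24. All members of complexes I, II and III and of ATP synthase lay above 1 on the probe read for each gene. Complex I ran from 1.24 for Ndufa6 and 1.47 for Ndufa7, small accessory subunits, to 3.09 for Ndufs6 and 3.42 for Ndufb10. In complex II the 2 catalytic subunits stood above the membrane anchors: Sdha, the flavoprotein, was at 3.77 and Sdhb, the iron-sulfur subunit, at 3.27, against 2.20 for Sdhd and 1.65 for Sdhc. Complex III was narrow, from 2.09 for Cyc1, which encodes cytochrome c1, and 2.45 for Uqcr11 to 2.82 for Uqcrh and 3.29 for Uqcrfs1, the Rieske iron-sulfur protein. Of the 3 genes for the identical mature subunit c of the ATP synthase ring, Atp5g3 was at 3.16 and Atp5g1 at 3.08, whereas Atp5g2 was at 1.22, the lowest of its complex, next to Atp5d, the delta subunit, at 1.42. Among the assembly factors Ndufaf4 and Ndufaf1 were at 1.83 and 1.56 and Ndufaf5 and Ndufaf7 at 0.71 and -0.056. The probe with the brightest heart signal was read for each gene, and in 5 members (Atp5g2, Ndufab1, Ndufaf4, Ndufv3 and Sdha) probes differed by more than 1 in their log2 ratio. Their other probes stood at 0.035 for Atp5g2, 0.36 for Ndufab1, 0.995 and 0.39 for Ndufaf4 and -0.57 and -0.57 for Ndufv3. The other probe of Sdha was at 2.27, near Sdhd. Median centring in place of loess lowered the members' median to 1.25 and that of all genes to -0.58. Without the 9 arrays apart it was 2.50.

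**Figure D1:**
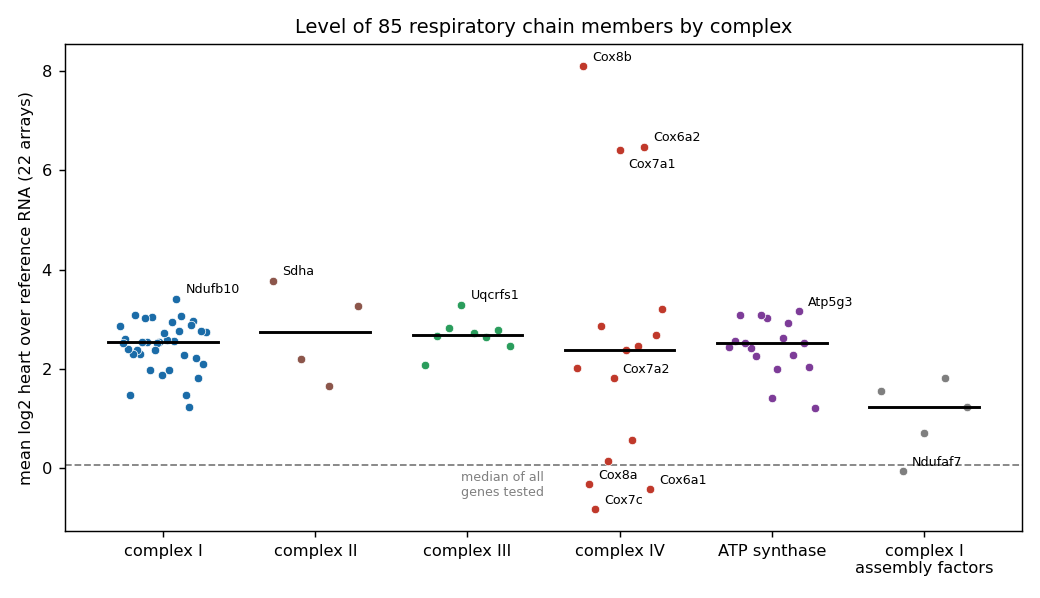
Mean log2 ratio of heart to reference RNA over 22 arrays for each of the 85 members, by complex; horizontal bars are medians and the dashed line is the median of all genes tested. On the probe read for each gene, complex IV spans from -0.82 (Cox7c) to 8.09 (Cox8b), while the members of complexes I, II and III and of ATP synthase lie between 1.22 and 3.77.

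Complex IV held the widest range. Apart from Cox7c, its lowest member, its ends were isoforms of the same subunits. The striated muscle forms Cox8b, Cox6a2 and Cox7a1 had mean log2 ratios of 8.09, 6.47 and 6.41, that is 273, 88.5 and 85.3 times the reference. Their widespread partners Cox8a, Cox6a1 and Cox7a2 were at -0.32, -0.42 and 1.81. Cox6b2, usually described as the testis form, was at 0.58 beside 2.47 for Cox6b1, and Cox7a2l, a relative of Cox7a2 known for its part in supercomplexes, was at 0.14. Cox4i1, the main form of subunit 4, was at 2.02, and its partner Cox4i2 was not above background. Ndufa4 was at 2.97.

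Cox7c, another small subunit of complex IV, was the lowest member at -0.82, but its value followed the day of scanning. On all 6 arrays of the scan day numbered 1 it lay above every other array, at 0.51 ± 0.23 (SD) with a range of 0.26 to 0.85, against -1.21 ± 0.30 on the 8 arrays of day 2 and -1.43 ± 0.20 on the 8 of day 3. Each scan day held all 4 groups. It was the only one of the 85 members so placed, against 0.374% of all genes above and 0.606% below on that day. The cause was not tested. Cox7c stays in the counts and medians of the members below, but no group difference of this gene is interpreted.

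**Figure D2:**
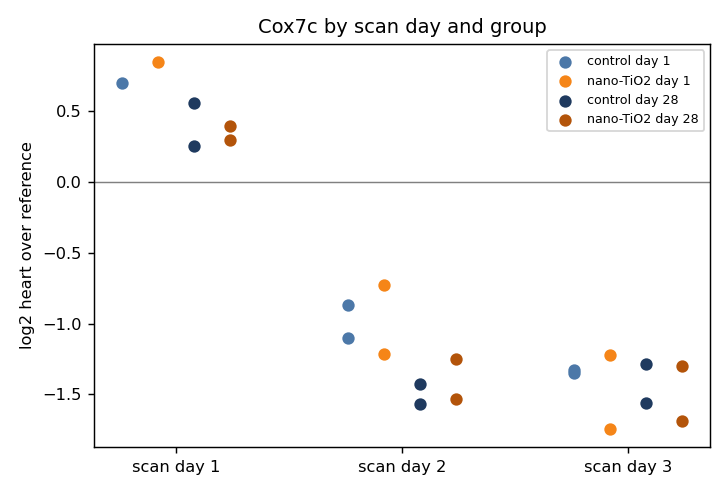
Log2 ratio of heart to reference RNA of Cox7c on each of the 22 arrays, by scan day. The 6 arrays of scan day 1 lie between 0.26 and 0.85 and the other 16 at or below -0.73.

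The promoters of both muscle isoforms with an entry in RefSeq's table and of 2 widespread partners are shown. These genes lie toward the ends of the complex IV range, Cox7c apart. Each run is the 250 bases before the annotated start (GRCm38.p6), and none overlaps another annotated gene. Capitals mark the letters GCGCANGCG (NRF-1) or CCGGAAG (ETS) on either strand.
Cox8b (chr7:140900447-140900696, minus strand): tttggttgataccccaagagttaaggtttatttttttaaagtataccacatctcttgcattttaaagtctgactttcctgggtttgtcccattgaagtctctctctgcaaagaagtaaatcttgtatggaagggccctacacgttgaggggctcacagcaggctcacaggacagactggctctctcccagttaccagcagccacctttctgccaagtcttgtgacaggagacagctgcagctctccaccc
Cox7a1 (chr7:30183921-30184170, plus strand): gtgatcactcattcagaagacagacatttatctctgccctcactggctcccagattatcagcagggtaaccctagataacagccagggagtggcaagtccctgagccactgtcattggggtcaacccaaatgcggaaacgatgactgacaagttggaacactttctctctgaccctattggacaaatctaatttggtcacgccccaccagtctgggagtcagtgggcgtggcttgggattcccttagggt
Cox8a (chr19:7217617-7217866, minus strand): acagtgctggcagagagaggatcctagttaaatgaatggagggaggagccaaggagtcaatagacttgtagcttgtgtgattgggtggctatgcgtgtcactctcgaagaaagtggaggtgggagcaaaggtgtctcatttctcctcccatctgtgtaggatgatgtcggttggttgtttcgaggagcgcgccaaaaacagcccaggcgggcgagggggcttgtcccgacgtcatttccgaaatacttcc
Cox6a1 (chr5:115348959-115349208, minus strand): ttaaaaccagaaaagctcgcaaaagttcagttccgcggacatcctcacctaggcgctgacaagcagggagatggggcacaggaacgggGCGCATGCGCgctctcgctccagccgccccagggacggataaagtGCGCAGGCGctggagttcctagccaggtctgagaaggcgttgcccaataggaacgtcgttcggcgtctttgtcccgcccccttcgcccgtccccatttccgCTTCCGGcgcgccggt
Cox6a1 held NRF-1 letters between 162 and 153 bases before its start, where matches on the 2 strands overlap, and again between 117 and 109, with ETS letters between 16 and 10. The windows of Cox8b, Cox7a1 and Cox8a held none of the 5 motifs searched, which says only that these letters are not there. The GC content was 47.2% for Cox8b, 51.2% for Cox7a1, 52.8% for Cox8a and 62.8% for Cox6a1.

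Across the members, 71 of 85 had a window in that table, and Cox6a2 and Cyc1 were among those without. The NRF-1 letters stood in 14 of 71 (19.7%), against 12.2% of the 8383 tested genes with a window and 5.86% of all 27025 genes of the table. The ETS letters stood in 13 (18.3%) against 15.2% of tested genes and 7.83% of all. AAGGTCA (ERR) was found in 5 (7.04%, against 3.69% of tested and 4.7% of all genes), AAGATGGC (YY1) in 1 (1.41%, against 2.36% and 1.83%) and TATAAA in 6 (8.45%, against 8.93% and 14.3%), all read on both strands. Atp5h, Atp5l, Cox6a1 and Sdhd held NRF-1 and ETS letters together. Members with NRF-1 letters had a median log2 ratio to the reference of 2.48 and those without had 2.52. The median GC content was 57.6% for members and 59.6% for tested genes.

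The clearest difference among the groups was in the control mice over time. Between day 1 and day 28, 29 of the 85 members fell in controls at an adjusted p under 0.05 (limma, Benjamini-Hochberg over all genes), which is 34.1% against 3.44% of all genes, and 0 rose, against 7.02% of all genes. The median difference over the 85 members was -0.33 on the log2 scale, with 82 lower and 3 higher, against -0.0024 over all genes. At an unadjusted p under 0.05, 65 members were lower and 1 higher, against 10.4% and 14.9% of all genes. For 14 members (16.5%) every day 28 control with a value lay below every day 1 control with a value, against 2.35% of all genes. Of these members, Atp5j had a value in 4 of the 6 day 28 controls, and Atp5g3, Ndufa12 and Ndufb11 in 5.

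Falls came from every complex. Complex III gave 5 of 8 members (Cyc1, Uqcrc1, Uqcrq, Uqcr11 and Uqcrfs1), complex I 12 of 36, ATP synthase 6 of 17, complex IV 4 of 15, complex II 1 of 4 (Sdhd) and the assembly factors 1 of 5 (Ndufaf1). Median differences were -0.42 in complex III, -0.33 in complex I and in ATP synthase, -0.31 in complex IV, -0.30 in complex II and -0.28 in the assembly factors.

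Cyc1 had the smallest p. Its log2 ratios in the 5 day 1 controls were 2.40, 2.41, 2.20, 2.37 and 2.44, and in the 6 day 28 controls they ran from 1.77 through a median of 1.86 to 2.07. The groups did not overlap. The difference was -0.50 ± 0.088 (SE), 1.41-fold lower, with an adjusted p of 0.00302. Among the other complex III genes, Uqcrc1 and Uqcrq, a core subunit and a small subunit, fell by 0.53 and 0.54, and Uqcrc2, the other core subunit, had a difference of -0.44 ± 0.14 with an adjusted p of 0.0513.

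In complex I, Ndufa8 stood at 2.49, 2.57, 2.46, 2.68 and 2.38 in the day 1 controls and ran from 1.54 through 1.93 to 2.45 at day 28. Only the highest day 28 mouse, replicate 6, reached the day 1 range. Its difference was -0.53 ± 0.12 with an adjusted p of 0.00709. The largest falls in the complex were those of the accessory subunits Ndufb9 (-0.58 ± 0.15, adjusted p 0.0165) and Ndufb5 (-0.58 ± 0.15, adjusted p 0.0165). Of the other complex I genes that fell, Ndufs3 (-0.51) and Ndufs7 (-0.43) encode core subunits, whereas those of Ndufs6, Ndufa9, Ndufa10, Ndufb3, Ndufb7, Ndufb10 and Ndufc1 are accessory, with falls between 0.34 and 0.50. The core subunits Ndufs1, Ndufv1 and Ndufv2 had differences of -0.18, -0.32 and -0.17, and none of these passed.

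In complex IV the 3 muscle isoforms fell. Cox8b stood at 8.39, 8.45, 7.95, 8.71 and 8.33 in the day 1 controls and ran from 7.59 through 7.84 to 8.04 at day 28, so day 1 replicate 3 lay within the day 28 range. Its difference was -0.54 ± 0.12, 1.46-fold lower, with an adjusted p of 0.00675. Cox7a1 fell by 0.50 ± 0.13 (adjusted p 0.0207) and Cox6a2 by 0.43 ± 0.12 (adjusted p 0.0231), and Cox6b1 fell by 0.45 (adjusted p 0.0142).

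None of the widespread partners passed in the fit used here. Cox6a1 stood at -0.90, -0.86, -0.75, -0.27 and -0.23 in the day 1 controls and from -0.45 through -0.27 to 0.25 at day 28, with overlap between the groups. Its difference was 0.45 ± 0.16 with an adjusted p of 0.0821. It passed as higher in 5 alternatives, with an adjusted p of 0.037 after plain background subtraction, 0.0206 in the authors' deposited table, 0.0159 with array weights, 0.0305 with scan day as a block and 0.0435 without control day 1 replicate 5. Cox8a had a difference of 0.11 ± 0.13 (adjusted p 0.647) and Cox7a2 one of -0.12 ± 0.12 (adjusted p 0.598). Within each mouse the log2 ratio of Cox6a2 lay above that of Cox6a1 by 7.28 ± 0.15 (SD) in the 5 day 1 controls. In the 6 day 28 controls the gap was 6.41 ± 0.39. The gaps ran from 7.14 to 7.48 and from 5.94 to 6.84, without overlap. Such gaps are between ratios to the reference and do not compare the amounts of the transcripts. For Cox8b over Cox8a the values were 8.72 ± 0.31 and 8.07 ± 0.24, and for Cox7a1 over Cox7a2 they were 4.84 ± 0.25 and 4.47 ± 0.33 with 5 mice measured at each time. With nano-TiO2 the difference of Cox6a2 over Cox6a1 was 7.07 ± 0.53 at day 1 and 6.90 ± 0.36 at day 28. The pairs were chosen for their forms and received no test of their own.

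**Figure D3:**
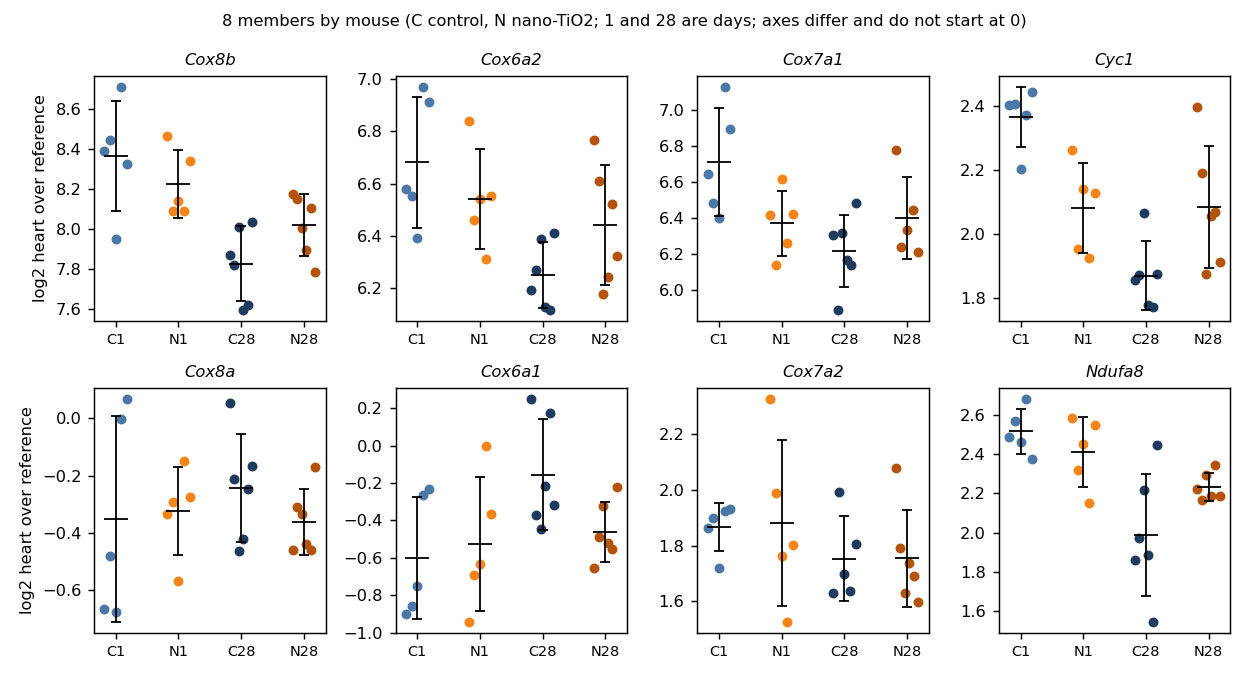
Log2 ratio of heart to reference RNA of 8 members in each mouse, by group, with the group mean and SD; the axes differ and do not start at 0. Cyc1 does not overlap between day 1 and day 28 controls. The muscle isoforms Cox8b, Cox6a2 and Cox7a1 have lower means at day 28 in controls but overlap between these groups, as do their partners in the lower row.

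In ATP synthase the falls were those of Atp5a1, the alpha subunit of the catalytic head (-0.38), of the ring genes Atp5g1 (-0.49) and Atp5g3 (-0.46), and of Atp5o, Atp5j2 and Atp5md (-0.37, -0.41 and -0.42). Atp5b, the catalytic beta subunit, had a difference of -0.26 ± 0.16 with an adjusted p of 0.31. In its day 1 controls replicates 4 and 5, the arrays of this group from scan day 3, stood at 3.26 and 3.12. The other 3 lay between 2.20 and 2.57. Sdhd of complex II fell by 0.37 ± 0.090 (adjusted p 0.012). Its values were 2.35, 2.32, 2.39, 2.58 and 2.44 at day 1 and 1.95 through 2.01 to 2.20 at day 28, and the groups did not overlap. Sdha, Sdhb and Sdhc had differences of -0.29, -0.32 and -0.23 and did not pass.

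Marker genes of other tissues moved with the same groups. The cardiomyocyte marker mean was 0.18 ± 0.12 (SD) in day 1 controls and -0.20 ± 0.16 in day 28 controls, with a median difference of -0.38 over its 10 genes, of which 5 fell. The adipocyte mean of 8 genes went from -1.91 ± 0.58 to 1.40 ± 1.05, with 6 of 8 rising, and the atrial mean of 6 genes from -1.20 ± 1.35 to 0.90 ± 0.18, with 2 of 6 rising. Of 5 smooth muscle markers 5 rose, as did 4 of 4 mesothelial, 2 of 6 fibroblast, 2 of 4 macrophage and 1 of 2 brown fat markers. By contrast 0 of 5 endothelial, 0 of 4 skeletal muscle, 0 of 2 erythroid, 0 of 4 liver and 0 of 1 lung epithelium markers did. Rising and falling here mean an adjusted p under 0.05 in limma, against 7.02% and 3.44% of all genes. All 4 liver markers nevertheless had differences above 0, with a median of 1.09, and Scgb1a1 of the lung had 1.18. The members' median per mouse minus the cardiomyocyte marker mean was 0.0055 ± 0.17 in day 1 controls and 0.033 ± 0.10 in day 28 controls. The part of these tissues in the members' values was not tested.

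Fewer members passed without the arrays that stood apart. Of the 5 arrays high in liver or lung markers 4 were day 28 controls, so leaving them out left 2 of these controls. Then 0 of 85 members and 1 of all 15502 genes passed, and the members' median difference was -0.21, with 10 members at an unadjusted p under 0.05. Without the 4 arrays low in atrial markers, 5 members passed with a median of -0.31. Without all 9, which left 3 and 2 controls, 0 members and 0 of all genes passed in limma, with a median of -0.19 and 10 members at an unadjusted p under 0.05. There Cyc1 had a difference of -0.48 (adjusted p 0.254), Cox8b one of -0.29 (adjusted p 0.543) and Ndufa8 one of -0.23 (adjusted p 0.62). Leaving out 1 control at a time gave between 12 and 45 members lower, with 12 without day 1 replicate 4 or day 28 replicate 4 or 5, 16 to 18 without day 1 replicate 5 or day 28 replicate 1 or 2, and 45 without day 28 replicate 6. Within the 3 scan days the median difference was -0.25, -0.33 and -0.41. Median centring in place of loess, which moved the median of all genes to 0.13, left the members at -0.08 and 0 of them past the threshold, and fitting the background on all spots left 1.

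**Figure D4:**
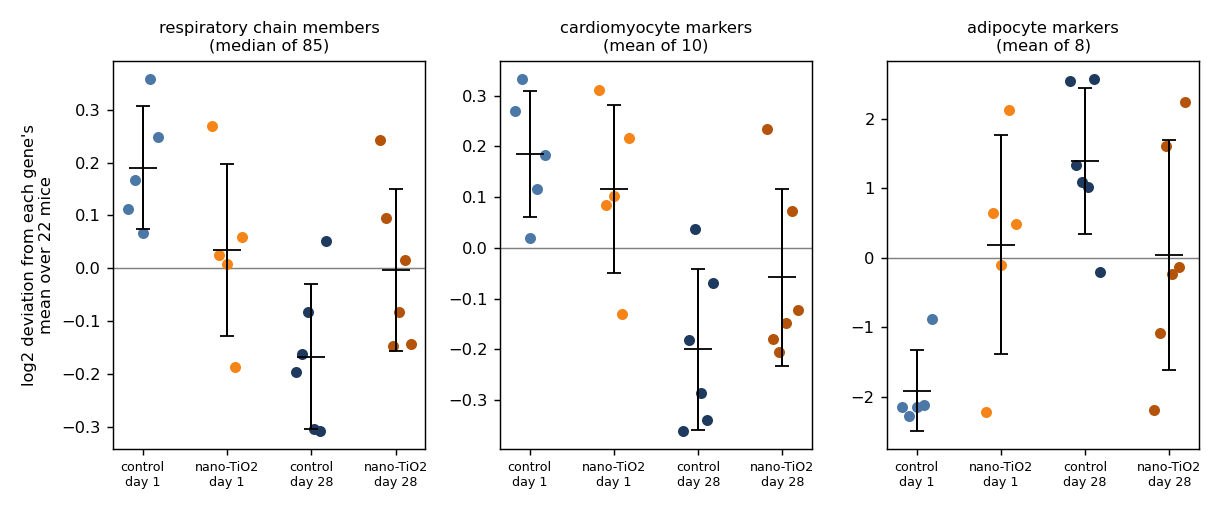
Median over the 85 members, mean of 10 cardiomyocyte markers and mean of 8 adipocyte markers in each mouse, as log2 deviations from each gene's mean over 22 mice, with group mean and SD; the vertical scales differ. The members' median is 0.19 in day 1 controls and -0.17 in day 28 controls, the cardiomyocyte mean 0.18 and -0.20, and the adipocyte mean -1.91 and 1.40.

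Mice differed in how many of their measured members (76 to 85 to an array) lay above their own mean over all mice. The number was between 61 and 70 in day 1 controls and between 4 and 22 in day 28 controls, apart from replicate 6 with 52. With nano-TiO2 it ran from 6 to 80 at day 1 and from 11 to 75 at day 28, with near-even splits in day 1 replicates 2 and 3 (46 and 43). The members' median was 0.19 ± 0.12 (SD) in day 1 controls, 0.035 ± 0.16 in nano-TiO2 mice at day 1, -0.17 ± 0.14 in day 28 controls and -0.0032 ± 0.15 in nano-TiO2 mice at day 28. Nano-TiO2 day 1 replicate 1, at 0.27, and nano-TiO2 day 28 replicate 1, at 0.24, were the highest of their groups and were also the arrays of these groups low in atrial markers, with adipocyte means of -2.22 and -2.19. Nano-TiO2 day 1 replicate 4 was the lowest of its group at -0.19, with an adipocyte mean of 2.13.

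The treated mice were next set against the controls at day 1, which asks what the particles did in the heart soon after they reached the lung. No member passed in limma with Benjamini-Hochberg adjustment (0 of 85, against 0% of all genes). The smallest adjusted p among members was 0.476. The median difference was -0.14, with 71 members lower and 14 higher. At an unadjusted p under 0.05, 9 members were lower (Atp5a1, Cox5a, Cox7a1, Cyc1, Ndufa9, Ndufs5, Sdhd, Uqcrc1 and Uqcrq) and 1 higher (Ndufaf7), against 2.64% and 6.00% of all genes, where 9 of 85 is 10.6%. By complex the median was -0.22 in ATP synthase, -0.16 in complex I, -0.12 in complex III, -0.062 in complex IV, -0.053 in complex II and -0.032 in the assembly factors.

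Cyc1 ran from 1.92 through 2.13 to 2.26 in the 5 nano-TiO2 mice against 2.20 to 2.44 in the controls, a difference of -0.28 ± 0.092 with an adjusted p of 0.476. Sdhd, from 1.97 through 2.24 to 2.28 against 2.32 to 2.58, did not overlap between the groups. Its difference was -0.27 ± 0.094 and its adjusted p 0.476. Sdhd was the only member with every nano-TiO2 mouse below every control, 1.18% of members against 0.426% of all genes. In the opposite direction there were 0 members, against 1.28% of all genes. Cox7a1 had a difference of -0.34 ± 0.14 (adjusted p 0.503), Ndufs8, a core subunit of complex I, 0.30 ± 0.24 (adjusted p 0.718) and Cox6b2 0.088 ± 0.096 (adjusted p 0.804). Ndufaf7, whose probe was well above background on 11 of 22 arrays, had 0.21 ± 0.087 (adjusted p 0.513). Without loess, under median centring, the members' median was 0.20 and that of all genes 0.17, and Cyc1, Sdhd and Cox7a1 took the opposite sign. Within the 3 scan days the median was -0.057, 0.0085 and -0.36. Slides 1, 5, 6 and 9 held 1 day 1 array of each treatment. Within them it was -0.19, 0.16, -0.13 and -0.55, so slide 5 had the opposite sign. Without the 9 arrays apart it was -0.17. The cardiomyocyte mean in nano-TiO2 mice was 0.12 ± 0.17 and the adipocyte mean 0.19 ± 1.58, against 0.18 ± 0.12 and -1.91 ± 0.58 in controls. All 8 adipocyte, 6 atrial, 5 smooth muscle, 4 mesothelial, 6 fibroblast and 4 macrophage markers had differences above 0, with 0 past the threshold. Their part in the members' values was not tested.

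The comparison at day 28 asks what remained after 28 days. Again 0 of 85 members passed, against 0% of all genes, and the smallest adjusted p was 0.637. The median difference was 0.17, with 80 members higher and 5 lower: all members of complexes I, II and III and of ATP synthase had values above 0, and the 5 below were Cox6a1, Cox8a, Cox6b2 and Cox7c of complex IV and Ndufaf7. At an unadjusted p under 0.05, 7 members were higher (Cox5b, Cyc1, Ndufa8, Ndufa10, Ndufb5, Sdhb and Uqcrfs1), 8.24% against 2.21% of all genes, and 0 were lower, against 5.37%.

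Ndufb5 ran from 2.60 through 2.81 to 3.11 in the 6 nano-TiO2 mice and from 1.95 to 2.68 in the controls, a difference of 0.43 ± 0.14 with an adjusted p of 0.637. The groups overlapped only by control replicate 1 and nano-TiO2 replicates 3 and 4. Ndufa10 had 0.27 ± 0.10 and Cox5b, measured in 4 nano-TiO2 and 5 control mice, 0.32 ± 0.12, each with an adjusted p of 0.637. Cox6a1 had -0.30 ± 0.16 (adjusted p 0.66) and Cox8a -0.12 ± 0.12 (adjusted p 0.844). Without the 9 arrays that stood apart the members' median was 0.0034 in place of 0.17. That left 5 nano-TiO2 mice and 2 controls, replicates 2 and 6, and replicate 6 was the control highest in the members (0.052 per mouse). Under median centring the members' median was 0.0055 with all genes at -0.096. Within the scan days it was 0.057, 0.38 and 0.031. Within the 6 slides that held 1 array of each treatment it was 0.28, -0.18, -0.077, 0.22, 0.42 and 0.22, so slides 2 and 3 had the opposite sign. The cardiomyocyte mean was -0.20 ± 0.16 in these controls and -0.058 ± 0.17 with nano-TiO2. The adipocyte mean was 1.40 ± 1.05 and 0.037 ± 1.65, brown fat 1.45 ± 0.62 and -0.51 ± 1.02, atrial 0.90 ± 0.18 and 0.064 ± 1.57 and smooth muscle 0.89 ± 0.33 and -0.063 ± 0.85. All 8 adipocyte markers were below 0 in this comparison, with a median of -1.85 and 0 past the threshold, and their part was not tested.

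**Figure D5:**
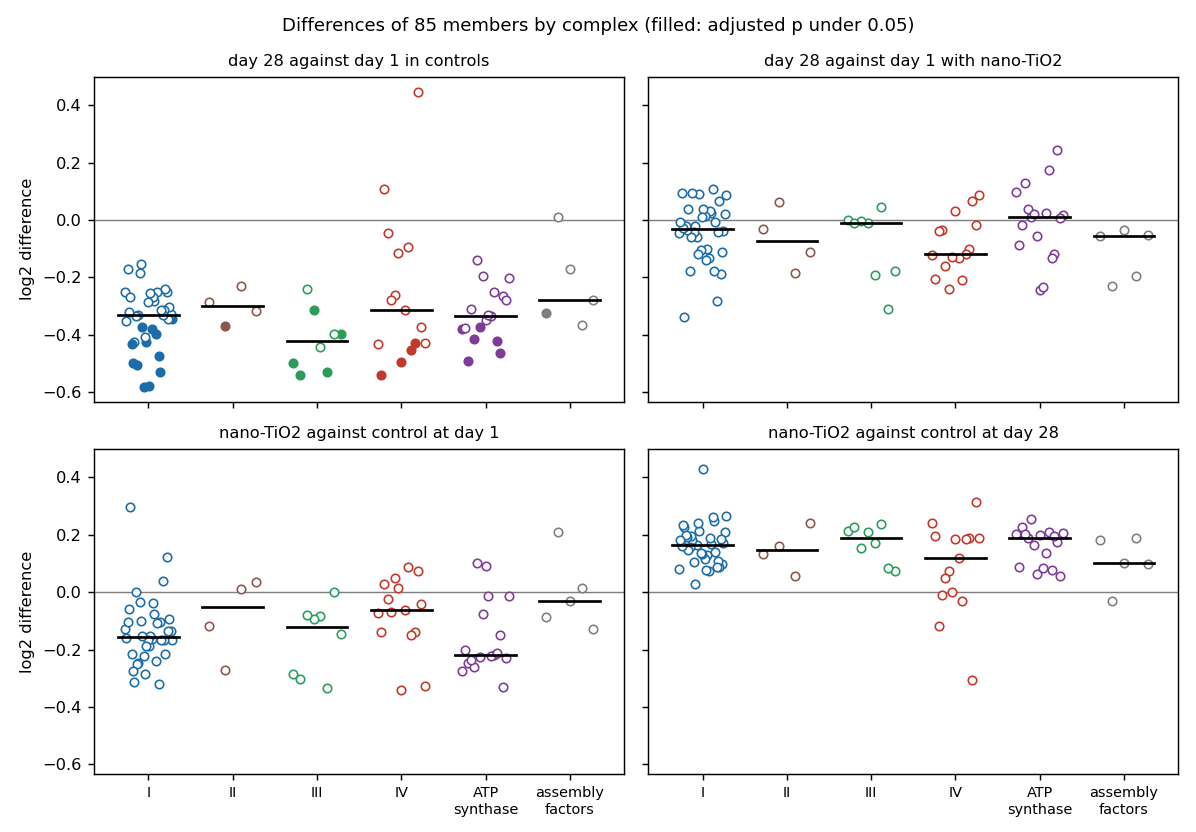
Log2 difference of each of the 85 members in 4 comparisons, by complex; filled points passed an adjusted p of 0.05 and bars are medians. Of the 4 panels only the control mice over time hold filled points, 29 in all; the members' medians are -0.33 there, -0.035 over time with nano-TiO2, -0.14 at day 1 and 0.17 at day 28, and under median centring in place of loess the day 1 median is 0.20.

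The difference between the responses at the 2 times was tested in the same fit. 0 of 85 members passed (0% of all genes), and the smallest adjusted p was 0.118, for Cyc1 (0.50 ± 0.12). The median over members was 0.29, with 79 higher and 6 lower. At an unadjusted p under 0.05, 30 members were higher, 35.3% against 4.82% of all genes, and 0 lower, against 9.96%. They comprised 13 of 36 in complex I, 9 of 17 in ATP synthase, 4 of 8 in complex III, 3 of 15 in complex IV and 1 of 4 in complex II. Sdhd had 0.43 ± 0.13 (adjusted p 0.128) and Uqcrc1 0.57 ± 0.19 (adjusted p 0.16). Below 0 were Ndufaf7 with -0.24 ± 0.12 (adjusted p 0.35), Cox6a1 with -0.38 ± 0.23 (adjusted p 0.464) and Cox6b2 with -0.12 ± 0.13 (adjusted p 0.731). Cyc1 passed when nano-TiO2 day 1 replicate 1 or nano-TiO2 day 28 replicate 3 was left out (adjusted p 0.0293 and 0.0443), and under median centring its value was -0.023 and the members' median -0.22, with all genes at -0.27. Without the 9 arrays apart, which left 2 day 28 controls, the members' median was 0.15, with 2 members at an unadjusted p under 0.05. In the same difference the median was -4.39 over the 8 adipocyte markers, -2.33 over the 6 atrial, -3.41 over the 2 brown fat, -2.28 over the 5 smooth muscle and -0.64 over the 6 fibroblast markers, with each marker of these lists below 0, and 0.24 over the 10 cardiomyocyte markers. Their part was not tested. This difference draws on all 4 groups, so it uses the same control mice as the comparisons above.

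Over time with nano-TiO2 the members showed little shift. 0 of 85 passed (0% of all genes), and the smallest adjusted p was 0.905. Their median difference was -0.035, with 56 lower and 29 higher. At an unadjusted p under 0.05, 3 members were lower (Cox6b2, Ndufaf7 and Uqcrb), against 2.86% of all genes, and 0 higher, against 1.66%. Atp5b, Atp5c1 and Atp5pb of ATP synthase had 0.24 ± 0.16, 0.17 ± 0.13 and 0.13 ± 0.13, with adjusted p of 0.905, 0.905 and 0.912, and took the opposite sign under median centring. Uqcrb of complex III had -0.31 ± 0.14, Ndufaf7 -0.23 ± 0.084 and Cox6b2 -0.21 ± 0.092, with adjusted p of 0.905 for each. Under median centring the members' median was -0.30 and that of all genes -0.12. Without the 9 arrays apart it was -0.012.

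Other nuclear genes of the pathway were read from lists. Of 51 further assembly factors 41 were tested, and between day 1 and day 28 in controls 6 fell and 0 rose (against 3.44% and 7.02% of all genes), with a median of -0.23 and 40 of 41 below 0. Tmem70, needed to assemble ATP synthase, fell by 0.36 ± 0.088 (adjusted p 0.0126) and Ecsit, a complex I assembly factor, by 0.34 ± 0.093 (adjusted p 0.0208). Foxred1, Cox17, Higd1a and Lrpprc fell by between 0.28 and 0.44. Of 22 tested electron carriers and inner membrane carriers 4 fell and 1 rose, against the same shares of all genes. Slc25a4, the ADP/ATP carrier of heart and muscle, fell by 0.54 ± 0.11 (adjusted p 0.00654), as did Slc25a3, the phosphate carrier, by 0.35, Coq5 and Coq8a, which serve ubiquinone synthesis, by 0.39 and 0.30, whereas Ucp2, an uncoupling protein abundant in immune cells, rose by 0.59 ± 0.16 (adjusted p 0.0205). Cycs, cytochrome c itself, had -0.18 ± 0.12 (adjusted p 0.365).

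Of 16 tested regulators 2 fell and 0 rose in controls over time, against 3.44% and 7.02% of all genes. Ppargc1a, which encodes PGC-1alpha, fell by 0.33 ± 0.089 (adjusted p 0.0216) and Perm1, a regulator of oxidative genes in striated muscle, by 0.51 ± 0.12 (adjusted p 0.00896). Among the factors whose motifs were searched, differences were -0.22 ± 0.087 for Nrf1 (adjusted p 0.113), 0.034 ± 0.083 for Gabpa (adjusted p 0.847) and -0.19 ± 0.080 for Esrra (adjusted p 0.131). Gabpb1, Esrrb, Esrrg and Yy1 were also tested and did not pass. Tfam, the mitochondrial DNA packaging factor, had -0.24 ± 0.091 (adjusted p 0.0956). Members with NRF-1 letters in their promoter window had a median difference of -0.32 and those without -0.32. In the nano-TiO2 comparisons at day 1 and day 28, over time with nano-TiO2 and between the responses, 0 genes of the 3 lists passed. The medians of the assembly factors, carriers and regulators were -0.069, -0.045 and -0.063 at day 1 and 0.10, 0.14 and 0.087 at day 28.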

How the data were processed

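Hearts of 22 mice were hybridised on 2-colour Agilent arrays (Cy5 heart, Cy3 reference, no dye swap; 250 ng of RNA with an integrity number of at least 7, per the labels). The deposited intensity values are median spot and local background intensities from Agilent Feature Extraction (10.7.3.1 per the file headers, 9.5.3.1 per the submitters' processing notes). The scanner's log10 ratios, per the file headers, and the authors' deposited log2 table, whose normalization is not given in the sources used here, served as alternatives. Background was corrected by normexp (offset 50), fitted without spots marked as uneven background, and loess was run within arrays in limma 3.58.1 (R 4.3.3). Spots marked as outliers (0.299%) were left out and spots of a probe averaged. Of 41174 probes, 19273 exceeded background clearly in the heart channel of 5 or more arrays. Accessions were matched to RefSeq (GRCm38.p6), 23374 probes matching 16535 genes. A probe without a match kept its accession as its gene. With these, 15502 genes were tested on the probe with the brightest Cy5 signal. Of them 10476 had a RefSeq symbol, and the others were unmatched accessions, which count among all genes throughout.

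limma (lmFit, eBayes) fitted 4 group means and 5 contrasts on all arrays, with Benjamini-Hochberg adjustment over 15502 genes, and was tested on simulated data. A gene missing on an array was fitted on the remaining arrays. P-values measure the spread between these mice. The number of arrays limits the precision. The members and lists were chosen with earlier results of these data known. Named members were tissue isoforms, the highest and lowest of each complex, the 3 smallest p-values per direction and comparison, all that passed, the Sdh genes and Cyc1, with the 2 smallest p-values of each further list; Uqcrc2, Ndufs1, Ndufv1, Ndufv2, Cycs, Slc25a3, Coq5, Coq8a, Foxred1, Cox17, Higd1a, Lrpprc, Nrf1, Gabpa, Esrra and Tfam were added after their values were seen. Alternatives covered background, normalization, filters, probes, blocks, weights and left-out arrays. Promoter windows came from RefSeq (GRCm38.p6).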

Additional observations from a re-analysis of the deposited data

Results flagged for a closer look

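Single arrays were checked within a group of 5 or 6 in 243 checks (54 members and 7 summaries). In these, 9 values on 6 arrays lay far from the others of their group. Their gap to the next value was between 0.651 and 0.764 of the group's range. Chance gives about 1 in 20, so the flags were no more frequent than chance gives. In day 28 controls replicate 6 was the highest for Atp5pb (2.78, next 2.39), Ndufa4 (3.13, next 2.89), Ndufa9 (3.27, next 2.89) and Uqcr11 (2.49, next 2.27), and this mouse also had the lowest adipocyte marker mean of its group, -0.20. Cyc1 was highest there in replicate 3 (2.07, next 1.87) and Ndufaf7 lowest in replicate 1 (-0.27, next -0.09). In day 1 controls Cox7c was high in replicate 3 (0.70, next -0.87), an array of scan day 1, and Sdhc was low in replicate 4 (1.08, next 1.75). The assembly factors' median was high in nano-TiO2 day 28 replicate 1 (0.305, next 0.032), an array low in atrial markers.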

How the results depend on the processing

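Alternatives that left out the arrays low in atrial or high in liver or lung markers separately, and the counts of members under each setting, were added after seeing the data. Of 30 pairs of a named member and a comparison, 13 kept direction and side of the threshold in every alternative run for them. In controls over time, where 1623 genes and 29 members passed (the members all lower), the numbers were 79 genes and 1 member with normexp on all spots, 87 and 0 with median centring, 3863 and 68 with scanner log ratios, 642 and 5 without the arrays low in atrial markers, 1 and 0 without those high in liver or lung markers, and 0 and 0 without all 9. Array weights gave 2556 genes, scaling between arrays 16 members and no filter on dim probes 17 members. Leaving out 1 array at a time gave 958 to 2069 genes (958 without control day 1 replicate 2, 961 and 1067 without control day 28 replicates 4 and 5, 1065 without control day 1 replicate 1) and 12 to 45 members. The nano-TiO2 comparison at day 1 went from 0 genes to 1 with plain subtraction, 7 with scanner log ratios, 4 with array weights, 15 without the arrays low in atrial markers and 0 to 21 leaving out 1 array. At day 28 it went from 0 to 1 with plain subtraction and 0 to 3 leaving out 1 array. The difference between responses went from 0 to 45 with scanner log ratios, 69 with array weights, 6 with scan day as a block, 16 without the arrays low in atrial markers and 0 to 311 leaving out 1 array, and over time with nano-TiO2 it was 0 to 0. The members' median under median centring was 0.20 at day 1, 0.0055 at day 28, -0.22 for the difference, -0.08 in controls over time and -0.30 with nano-TiO2. Without the 9 arrays, which left 2 day 28 controls, it was 0.0034 at day 28 and -0.19 in controls over time. Leaving out 1 array it ran from -0.19 to -0.071 at day 1, 0.11 to 0.21 at day 28, 0.23 to 0.34 for the difference, -0.38 to -0.30 in controls and -0.098 to 0.014 with nano-TiO2. The members' median against the reference was 1.25 with median centring, 2.19 in the authors' deposited table and 2.49 to 2.53 leaving out 1 array. Ndufaf7, close to background, changed sign. At day 28 it was 0.067 with no background subtraction, 0.0077 with normexp on all spots, 0.23 with scanner log ratios, 0.078 in the deposited table and -0.0684 to 0.0062 leaving out 1 array (0.0062 without nano-TiO2 day 28 replicate 4). In controls over time these first 4 settings gave -0.062, -0.036, -0.43 and -0.078, and leaving out 1 array -0.054 to 0.048. Scanner log ratios gave -0.019 at day 1 and 0.25 for the difference, where the deposited table gave 0.024, and Ndufs8 at day 1 was -0.082 with scanner log ratios. Median centring turned Cyc1, Sdhd and Cox7a1 at day 1 to 0.074, 0.075 and 0.072, Cyc1 and Sdhd for the difference to -0.023 and -0.074, and Atp5b, Atp5c1 and Atp5pb with nano-TiO2 over time to -0.077, -0.14 and -0.16. The cause was not tested. The labels give no replicate number shared between groups, so no replicate number was used as a block. With slide as a block, the members' medians were -0.14 at day 1, 0.17 at day 28 and -0.33 in controls over time, where 30 members passed.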

Other observations

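Within the day 1 controls the complexes did not stand in the same order in each mouse. Replicates 4 and 5 had ATP synthase medians of 0.47 and 0.30, as deviations from each gene's mean over all mice, while the other 3 lay between 0.042 and 0.088. Complex II ran the other way there, at -0.055 and 0.021 in replicates 4 and 5 against 0.25 to 0.31. Replicates 4 and 5 were also the only day 1 controls of scan day 3, so mouse and scan day cannot be told apart within this group. These are values of single mice with no test.

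The scan day pattern of Cox7c was mainly in the heart channel. The median log2 Cy5 signal of its only spot after background subtraction was 11.2 on scan day 1 and 7.50 and 7.26 on the others, and the Cy3 signal was 11.5 against 10.3 and 10.75.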
